A study of Mesocricetus auratus with 6 samples.

Results

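Tight junctions and the cell polarity machinery were followed through 40 genes: the scaffold proteins under the junction, the proteins that span the membrane, and the polarity complexes. The members were all probe sets that the platform annotation assigns to one of these genes alone, each read separately. This gave 56 probe sets of 33 genes, out of 22215 probe sets of 11963 genes tested. They comprised 13 probe sets of 7 scaffold genes, 16 of 14 membrane genes and 27 of 12 polarity genes. For 7 listed genes, CGN, MAGI1, MAGI2, MARVELD2, CLDN2, CLDN12 and F11R, the annotation used here names no probe set, and they were not analysed here.

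RNA came from the uterus of untreated Syrian golden hamsters on day 5 of pregnancy. Implantation sites, the pieces of uterus with an embryo, were compared with interimplantation sites, the pieces between embryos, with 3 arrays in each group, whose values are given in the order of their numbers. The design text speaks of 3 animals, but no label ties an array to an animal, so the p-values reflect only how far these arrays spread. A piece of uterus holds epithelium, stroma, muscle, vessels and, at implantation sites, possibly embryonic cells. The array carries probes for human transcripts. A probe set that matches the hamster transcript poorly can be dim and can miss a difference. A bright value does not show that the named hamster gene was read, since probe sequences were not checked here. For each of the 33 genes, RefSeq lists a hamster gene under that symbol.

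A tight junction seals the space between neighbouring epithelial or endothelial cells. Claudins form its strands and set which ions pass, occludin joins them, and JAM proteins add adhesion. Scaffolds such as ZO-1 tie these proteins to actin. The PAR complex (PARD3, PARD6 and atypical protein kinase C) and the Crumbs complex define the apical side, and the Scribble complex the basolateral side. In mice and rats, stromal cells beside the attached embryo take up tight junction proteins as they turn into decidua, while the luminal epithelium there is later lost.

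One member changed at implantation sites in the test over all probe sets. The brighter probe set of TJP1, which encodes the scaffold ZO-1, fell. Its other probe set did not pass, and neither did any probe set of the claudins, occludin, the JAM proteins or the polarity genes. The member nearest to the threshold on the higher side was CRB1, a gene of the Crumbs family known best from the retina. Differences below are log2 values of implantation minus interimplantation sites from limma, with the standard error (SE). A probe set passed at a Benjamini-Hochberg adjusted p under 0.05. By this rule 1 of 56 member probe sets passed (1.79%), against 1.06% of all probe sets, of which 0.702% were higher and 0.356% lower. A further count took an unadjusted p under 0.05 and found 5 of 56 (8.93%), 2 higher and 3 lower, against 10.5% of all probe sets (5.27% higher and 5.23% lower). The share of members past either threshold thus lay near that of the whole array.

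TJP1 was read by probe sets 202011_at and 214168_s_at. At 202011_at the log2 values were 7.69, 7.61 and 7.67 in the interimplantation sites and 7.00, 7.16 and 7.09 in the implantation sites. The groups were far apart for the spread within each, and the lowest interimplantation value lay well above the highest implantation value. The means were 7.65 ± 0.04 and 7.08 ± 0.08 (SD, n = 3), a log2 difference of −0.57 ± 0.07 SE (95% interval −0.73 to −0.41, limma adjusted p = 0.00363). This is 1.49-fold lower at implantation sites, with an interval of 1.33 to 1.66-fold. Among the 22215 probe sets it ranked 54 by p-value, and 13 among those that were lower. Leaving out any single array kept it past the threshold, with adjusted p-values from 0.0104 to 0.0247.

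The second TJP1 probe set did not show this difference. At 214168_s_at the values were 5.08, 5.18 and 5.38 in interimplantation sites and 5.03, 5.29 and 5.18 in implantation sites. The groups overlapped, and the difference was −0.05 ± 0.10 SE (95% interval −0.26 to 0.17, adjusted p = 0.919). Its interval stays above the interval of the brighter probe set. The gap between both probe sets, taken within each array, averaged 2.44 ± 0.16 in interimplantation and 1.92 ± 0.05 in implantation sites (log2, SD, n = 3). They differed by −0.52 between the groups, a description of this pair of probe sets with no test. The mean of the probe sets of TJP1 was at −0.31 ± 0.07 SE and did not pass (adjusted p = 0.105). In bulk tissue, fewer cells of a type and less TJP1 RNA per cell cannot be told apart.

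**Figure D1:**
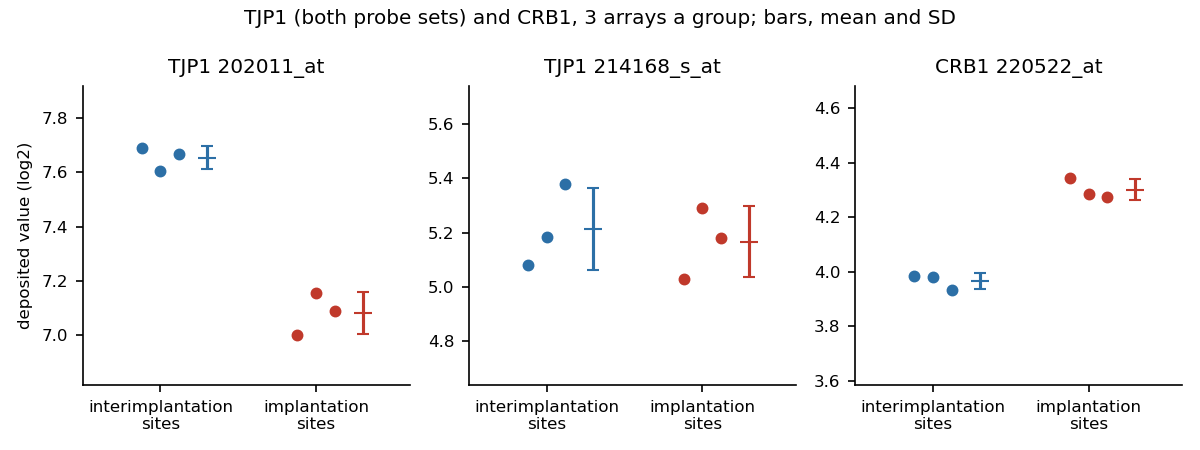
Deposited log2 values of both TJP1 probe sets and of the CRB1 probe set on each array, blue for interimplantation and red for implantation sites, with the mean and SD of 3 arrays beside the points. The groups are apart at TJP1 202011_at (7.65 against 7.08) and at CRB1 (3.97 against 4.30) and overlap at TJP1 214168_s_at; each panel spans the same range of log2 units.

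The other scaffold probe sets differed little, and none of the 12 had an unadjusted p under 0.05. Their differences ran from −0.12 to 0.19. TJP3, which encodes the related scaffold ZO-3, was at 0.03 ± 0.08 SE at 213412_at and −0.11 ± 0.08 SE at 35148_at. MPDZ, a protein with many PDZ domains that binds claudins, was at 0.17 ± 0.11 SE and 0.14 ± 0.08 SE. Both MPDZ probe sets leaned to higher values at implantation sites, but the groups overlapped in each. AFDN, afadin, which links nectins to actin, had 3 probe sets on both sides of 0, from −0.12 to 0.13. SYMPK, symplekin, a protein of mRNA 3′ end formation that was also found at tight junctions, was at 0.19 ± 0.11 SE and 0.00 ± 0.08 SE.

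The angiomotins bind polarity proteins and the effectors of the Hippo pathway. AMOT was the one further scaffold gene whose groups did not overlap, with 4.50, 4.54 and 4.62 in interimplantation and 4.43, 4.47 and 4.40 in implantation sites. The difference was small (−0.12 ± 0.07 SE, adjusted p = 0.634). AMOTL2 was at 0.06 ± 0.08 SE with overlapping groups.

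Among the membrane proteins 0 of 16 probe sets passed in limma's test, and 1 had an unadjusted p under 0.05. Their differences lay between −0.17 and 0.24, and every one of their 95% intervals stayed within 0.5 of 0, so differences of 1.41-fold lie outside these intervals. This bound holds only for what the human probes read of the hamster transcripts. OCLN, occludin, was read at 3.41, 3.39 and 3.38 in interimplantation and 3.10, 3.36 and 3.20 in implantation sites. The implantation values were lower without overlap, though the gap between the groups was 0.015. The difference was −0.17 ± 0.08 SE (95% interval −0.35 to 0.01, adjusted p = 0.512). This probe set was dim, with a mean of 3.31 over all arrays against a median of 4.19 over all probe sets.

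The claudins were read by 12 probe sets of 10 genes. The lowest unadjusted p belonged to CLDN18, the claudin of stomach and lung epithelium, whose 3 probe sets disagreed. At 221132_at the values were 5.22, 5.28 and 5.21 in interimplantation and 5.40, 5.44 and 5.59 in implantation sites. The groups did not overlap, and the difference was 0.24 ± 0.08 SE (adjusted p = 0.248). At 214135_at it was −0.10 ± 0.09 SE and at 221133_s_at −0.02 ± 0.08 SE, both with overlapping groups.

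Of the other claudins, CLDN14 and CLDN15 had groups that did not overlap, both lower at implantation sites. CLDN14, known from the inner ear and kidney, was at 4.98, 4.77 and 4.86 in interimplantation and 4.75, 4.76 and 4.65 in implantation sites (difference −0.15 ± 0.08 SE, adjusted p = 0.567). CLDN15, which forms cation pores in the intestine, was at 7.32, 7.36 and 7.37 against 7.28, 7.24 and 7.31. Its groups were separated by 0.011 (difference −0.07 ± 0.07 SE, adjusted p = 0.793). The remaining 7 claudin genes had overlapping groups. CLDN11, the claudin of myelin and Sertoli cells, was at −0.15 ± 0.09 SE, CLDN8, of the kidney collecting duct, at −0.12 ± 0.10 SE and CLDN16, a kidney claudin of magnesium transport, at 0.15 ± 0.10 SE. CLDN17 was at 0.09, CLDN9 at 0.02 and CLDN10 at −0.01. CLDN1, the claudin of the epidermal barrier, was at −0.02 ± 0.07 SE and was dim, with a mean of 2.92, under the first quartile of 3.10.

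The adhesion proteins of the immunoglobulin family lay close together. JAM2 and JAM3, found at junctions of endothelium and other cells, were at −0.08 ± 0.10 SE and −0.05 ± 0.08 SE. CXADR, the coxsackievirus and adenovirus receptor, which also sits at tight junctions, was at −0.06 ± 0.09 SE. All of these 3 had overlapping groups.

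**Figure D2:**
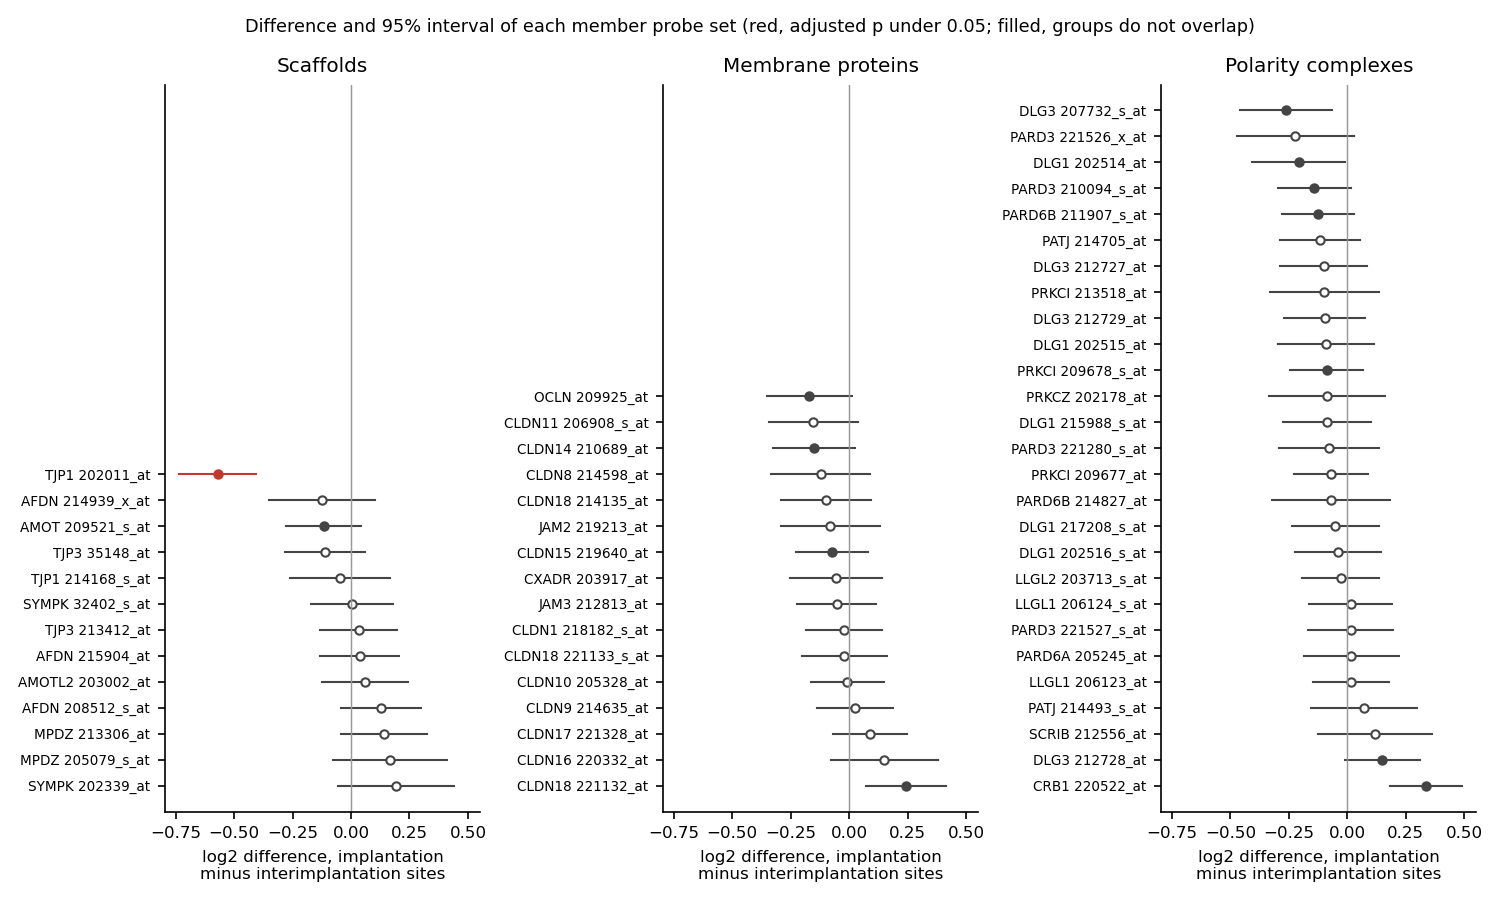
Log2 difference of implantation minus interimplantation sites (x axis) for each of the 56 member probe sets, in 3 panels by role, with 95% intervals of limma's fit. Red marks an adjusted p under 0.05, reached by TJP1 202011_at alone at −0.57; filled points mark the 13 probe sets whose groups did not overlap.

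In the polarity complexes 0 of 27 probe sets passed in limma's test, and 3 had an unadjusted p under 0.05. CRB1, whose relative in fly is the apical determinant Crumbs, was at 3.98, 3.98 and 3.93 in interimplantation sites and 4.35, 4.28 and 4.27 in implantation sites. The arrays of each group lay close together, and the groups were apart by more than the spread within them. The means were 3.97 ± 0.03 and 4.30 ± 0.04 (SD, n = 3), a difference of 0.34 ± 0.07 SE (95% interval 0.18 to 0.49), or 1.26-fold. The adjusted p of 0.0504 just missed the threshold. With a mean of 4.13 the probe set lay just under the median brightness of 4.19, and it passed a filter at that median through its implantation mean alone. Without that filter, the adjusted p was under 0.05 in 6 of 16 alternatives of the processing, which gave 0.0344 to 0.171, and in 0 of the 6 that left out an array.

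PATJ, a scaffold of the Crumbs complex, was dim at both probe sets (means 2.16 and 2.99), with differences of −0.12 ± 0.08 SE and 0.07 ± 0.10 SE. In the PAR complex, 4 probe sets read PARD3, the central scaffold. At 210094_s_at the values were 5.97, 5.93 and 5.95 in interimplantation and 5.87, 5.76 and 5.80 in implantation sites. The groups did not overlap, and the difference was −0.14 ± 0.07 SE (adjusted p = 0.524). The other PARD3 probe sets were at −0.22 ± 0.11 SE, −0.08 ± 0.10 SE and 0.01 ± 0.08 SE, with overlapping groups. In the first of these, implantation site 1 stood apart, at 5.08 against 5.48 and 5.57 in the other implantation sites.

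PARD6B, an adaptor of the same complex, was at 3.71, 3.67 and 3.63 in interimplantation and 3.53, 3.52 and 3.57 in implantation sites at 211907_s_at. The difference was −0.13 ± 0.07 SE without overlap, and −0.07 ± 0.12 SE with overlap at the dimmer 214827_at. PARD6A was at 0.02 ± 0.09 SE. The kinase PRKCI had 3 probe sets, each lower by a similar small amount, between −0.10 and −0.07. The brightest, 209678_s_at, was at 5.21, 5.12 and 5.20 in interimplantation and 5.08, 5.07 and 5.12 in implantation sites. Here the groups were separated by 0.0069 (difference −0.09 ± 0.07 SE, adjusted p = 0.735). The related kinase PRKCZ was at −0.09 ± 0.11 SE with overlapping groups.

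In the Scribble complex, DLG1 and DLG3 encode membrane-associated scaffolds with PDZ domains. At DLG3 207732_s_at the values were 5.22, 5.21 and 5.26 in interimplantation and 4.95, 5.14 and 4.81 in implantation sites. The implantation values were lower without overlap and varied more (difference −0.26 ± 0.09 SE, adjusted p = 0.285). At DLG3 212728_at they were higher without overlap, with 5.49, 5.52 and 5.45 against 5.57, 5.70 and 5.64 (difference 0.15 ± 0.07 SE, adjusted p = 0.512). The other DLG3 probe sets were at −0.10 each, and the mean over all 4 was at −0.08 ± 0.06 SE.

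All 5 probe sets of DLG1 were lower at implantation sites, by −0.21 to −0.04. At 202514_at, the one with an unadjusted p under 0.05, the values were 3.24, 3.07 and 3.15 in interimplantation and 2.77, 3.06 and 2.99 in implantation sites. The groups were separated by 0.0013 (difference −0.21 ± 0.09 SE, adjusted p = 0.447), and without implantation site 1 the difference was −0.12. SCRIB, the gene of Scribble itself, was at 0.12 ± 0.11 SE, LLGL1 at 0.02 ± 0.07 SE and 0.01 ± 0.08 SE, and LLGL2 at −0.03 ± 0.07 SE. The groups of these 3 genes overlapped at every probe set.

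**Figure D3:**
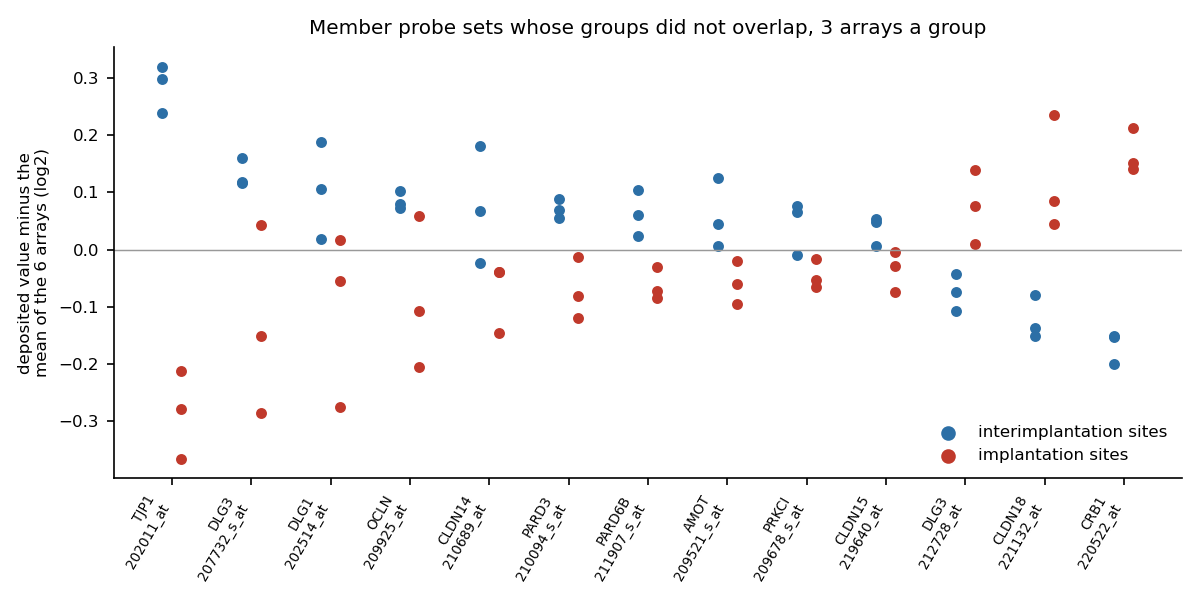
Values of the 13 member probe sets whose groups did not overlap, each minus its mean over the 6 arrays (y axis, log2), blue for interimplantation and red for implantation sites. TJP1 202011_at at the left and CRB1 at the right show the widest separation between groups; 10 of the probe sets are lower and 3 higher at implantation sites.

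The direction of the small differences was also counted over all members. Groups did not overlap in 13 of 56 probe sets (23.2%), against 16.0% of all probe sets. Of these, 10 were lower (17.9%, against 8.30% of all) and 3 higher (5.36%, against 7.72% of all). Differences were negative in 36 of 56 members (64.3%) and in 53.6% of all probe sets, with medians of −0.06 and −0.01. Negative differences were most frequent in dim members, with 18 of 23 below the median brightness (78.3%, where 53.6% of all probe sets of any brightness were). At or above it they were 18 of 33 (54.5%, where 52.3% of all such probe sets were). Lower values without overlap were more frequent in the brighter members, with 7 of 33 (21.2%, against 9.18% of all such probe sets). Below the median they were 3 of 23 (13.0%, against 8.30% of all probe sets of any brightness). By role, 12 of 16 membrane probe sets (median −0.06), 19 of 27 polarity probe sets (median −0.08) and 5 of 13 scaffold probe sets (median 0.03) were negative. These are descriptions, since probe sets of a gene share their target and all members share the same arrays. Differences under 0.2 in size were found in 50 of 56 members (89.3%) and in 89.8% of all probe sets.

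The members' brightness limits these comparisons unevenly. Of 56 probe sets, 33 were at or above the median and 11 lay in the first quartile, 9 of them in the polarity complexes. Probe sets of a gene often disagreed in sign. Of 13 genes with several probe sets, 6 had some higher and some lower, 4 had all lower and 3 all higher. The spread between a gene's probe sets was largest in TJP1 (0.52), DLG3 (0.41) and CLDN18 (0.34), and smallest in LLGL1 and MPDZ.

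A further list held 69 genes of junctions, polarity and the actin and GTPase machinery beside them, 51 of which were measured by 92 probe sets. In limma's test 0 passed, while 10 probe sets, 4 of them higher and 6 lower, reached an unadjusted p under 0.05 (10.9%, against 10.5% of all probe sets). The smallest p-values on the higher side belonged to YBX3, a transcription factor that binds ZO-1, and CDK4, a cell cycle kinase known to associate with it. At YBX3 201160_s_at the values were 4.68, 4.96 and 4.71 in interimplantation and 5.15, 5.15 and 5.32 in implantation sites. The difference was 0.43 ± 0.09 SE (adjusted p = 0.0601), but at 213319_s_at it was −0.25 ± 0.08 SE (adjusted p = 0.260). The groups did not overlap at either. At the third YBX3 probe set, 201161_s_at, they overlapped (0.07 ± 0.13 SE, adjusted p = 0.903), so the probe sets of YBX3 disagreed.

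CDK4 202246_s_at was at 5.85, 6.22 and 6.11 in interimplantation and 6.54, 6.81 and 6.41 in implantation sites (0.53 ± 0.12 SE, adjusted p = 0.0626). CASK 211208_s_at, a scaffold kinase of the basolateral membrane, was at 0.32 ± 0.11 SE (adjusted p = 0.262), and at 0.21 without interimplantation site 3. On the lower side, the epithelial claudin CLDN3 at 203953_s_at was at 3.33, 3.28 and 3.82 in interimplantation and 2.98, 2.98 and 2.90 in implantation sites. Interimplantation site 3 was the high one, and the groups did not overlap (−0.52 ± 0.12 SE, adjusted p = 0.0832; −0.35 without that array). The second CLDN3 probe set, 203954_x_at, was at −0.23 ± 0.10 SE (adjusted p = 0.428) with overlapping groups. RAPGEF2, an activator of the GTPase RAP1, was at −0.35 ± 0.11 SE (203097_s_at, adjusted p = 0.204).

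Markers of epithelium and endothelium, whose cells are joined by tight junctions, were read on the same arrays. Of 33 epithelial probe sets (18 of 20 genes), 0 passed in limma's test. At an unadjusted p under 0.05 there were 8 lower, in CLDN3, KRT19, KRT8, CD24 and ST14, and 0 higher (24.2%, against 10.5% of all probe sets), while 10 of the 33 differences were positive. Their summed level (log2 of the sum of the unlogged values) was 9.47 to 9.54 in implantation and 9.59 to 9.64 in interimplantation sites. EPCAM (−0.07) and CDH1 (−0.12 and −0.03), defining markers of epithelium, were dim, with means of 2.80, 2.90 and 3.39. Of 23 endothelial probe sets (15 of 16 genes), 2 lower and 0 higher reached that level (8.70%, against the same 10.5%). SOX17, a transcription factor of vessels and uterine epithelium, fell (5.06 ± 0.29 against 5.84 ± 0.05, SD, n = 3; −0.78 ± 0.12 SE, adjusted p = 0.0103), while the junction genes of vessels CDH5 (−0.05), CLDN5 (−0.11) and PECAM1 (−0.01 to 0.03) had overlapping groups. The summed endothelial level was 8.91 to 8.95 in implantation and 9.03 to 9.09 in interimplantation sites. This sum includes SOX17, the largest difference of the list (median −0.05), and a sum without it was not taken. Neither summed level overlapped between the groups, and their part in the TJP1 difference was not tested.

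Markers of muscle, stroma and leukocytes were read in the same way. In smooth muscle (19 probe sets, 11 of 12 genes) ACTG2 (−0.80) and TAGLN (−0.56) fell. The summed level was 9.19 to 9.24 in implantation and 9.30 to 9.56 in interimplantation sites. At an unadjusted p under 0.05 there were 6 lower and 0 higher (31.6%, against 10.5% of all probe sets), while 6 of the 19 differences were positive. In stroma (26 probe sets, 11 of 12 genes) COL1A1 217430_x_at (0.56) and WT1 216953_s_at (0.74) rose and PDGFRA 203131_at (−0.66) fell. The summed levels were 11.87 to 11.94 against 11.66 to 11.87, which met at the edge. At that unadjusted level 7 were higher and 3 lower (38.5%, against the same 10.5%), and 14 of the 26 differences were positive. The other WT1 probe set was at −0.02 and the other PDGFRA probe sets at −0.08 and −0.06. Averaged per gene, WT1 (0.36, adjusted p = 0.112), PDGFRA (−0.26, adjusted p = 0.117) and COL1A1 (0.28, adjusted p = 0.0677) did not pass. Neither did ACTG2 (adjusted p = 0.0697) and SPI1 (adjusted p = 0.0520). ACTG2 and SPI1 have 1 probe set each, so averaging left their differences at −0.80 and −0.49, and only the fit around them changed. After repeated quantile normalization COL1A1 217430_x_at was at 0.28 (adjusted p = 0.137). In the leukocyte list (15 probe sets, 11 of 12 genes) SPI1 (−0.49) fell, with summed levels of 8.67 to 8.71 against 8.64 to 8.67. At that unadjusted level 1 was higher, CD53 (0.17, limma adjusted p = 0.424), and 1 lower (13.3%, against the same 10.5%). Of the 15 differences 9 were positive. Calls of TAGLN, ACTG2 and SPI1 held in 1 of the 6 fits that left out an array (adjusted p up to 0.158, 0.146 and 0.161), and that of WT1 in 4 (up to 0.0840). COL1A1 missed the threshold in 1 of them (adjusted p = 0.0513 without implantation site 1), as did SOX17 (0.0639 without the same array). For comparison, the summed level of the 13 scaffold probe sets was 8.79 to 8.81 in implantation and 8.96 to 8.98 in interimplantation sites. Without TJP1 202011_at it was 8.25 to 8.29 against 8.21 to 8.25, which turned the direction, so the lower scaffold sum rested on this probe set. The summed membrane level overlapped between groups (9.15 to 9.20 against 9.19 to 9.20), and the summed polarity level was 9.51 to 9.55 against 9.57 to 9.59, without overlap.

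**Figure D4:**
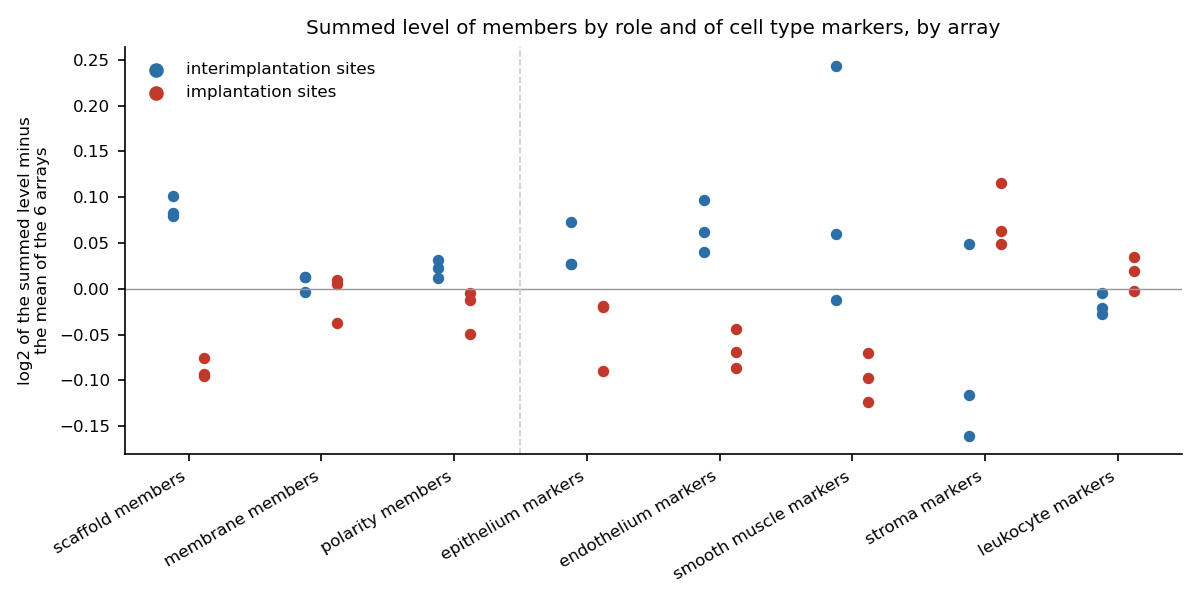
Log2 of the summed level of the members by role and of 5 cell type marker lists on each array, each minus its mean over the 6 arrays (y axis), blue for interimplantation and red for implantation sites. Scaffold and polarity members and the epithelium, endothelium and smooth muscle markers are lower on all 3 implantation arrays than on any interimplantation array, and membrane members overlap; the scaffold direction turns without TJP1 202011_at.

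Over all probe sets, arrays of a group correlated at 0.989 to 0.995 and arrays of different groups at 0.985 to 0.992, and no pair of arrays held identical values. Array medians were 4.18 to 4.20. The actin signal from the 3′ end minus that from the 5′ end is commonly used as a measure of RNA quality. It was −2.33 to −1.92 in implantation and −1.87 to −1.59 in interimplantation sites, without overlap. The 3′ probes were thus dimmer than the 5′ probes on every array, and how far these human probes read RNA quality in hamster is not known. The same measure for GAPDH was −0.31 to −0.02 and −0.03 to 0.31, and overlapped. The part of RNA quality in the TJP1 difference was not tested.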

How the data were processed

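The deposited table holds 1 log2 value per probe set and array, which the authors computed by RMA with the program Partek 6.6 (source: the submitters' processing notes). RMA settings and the log base were not given in the sources used here, and the range of 1.65 to 12.1 was read as log2. RMA brings arrays to one distribution, so a change in total RNA is not visible. Of 22283 probe sets, 68 controls were left out. The platform annotation gave 1 gene to 19065 of the rest, several to 1043 and none to 2107.

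Groups were compared over all 22215 probe sets with limma 3.58.1 in R 4.3.3 (lmFit, eBayes, two-sided, no covariate, Benjamini-Hochberg adjustment, threshold 0.05). Intervals are 95% intervals of that fit. The fit was tested on simulated data, where it called 10 of 50 differences of 1.25-fold and 34 of 50 of 1.5-fold. Of 2-fold differences it called 48 of 50, and it made 9 false calls. Small differences can therefore be missed. Members, roles and lists were chosen with earlier results of these data known. Named were all members, the 6 probe sets of the other junction genes with the smallest p-values, and marker probe sets past the threshold; further marker genes and probe sets, CLDN3 203954_x_at and YBX3 201161_s_at were named after their values were seen. The labels state no pairing, so replicate numbers were not used as pairs. Deviations of same-numbered arrays correlated at 0.054, −0.0025 and 0.070, and those of differently numbered arrays at −0.0694 to 0.0175. These small values do not settle whether the arrays were paired. The number of arrays limits the precision.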

Additional observations from a re-analysis of the deposited data

How the results depend on the processing

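There were 17 alternatives. TJP1 202011_at stayed lower past the threshold in 16, and missed it when probe sets were averaged per gene (log2 −0.31, adjusted p = 0.105). The count of member probe sets past the threshold was 1 in each fit that left out an array. It was 2, with CRB1 higher as the second, with a random replicate block, after cyclic loess, after repeated quantile normalization, with either filter on brightness and with array weights. The filters keep a probe set by its higher group mean, and CRB1 passed the one at the median through its implantation mean alone. With gene means 1 member passed, CRB1 (0.34, adjusted p = 0.0344). CRB1 has 1 probe set, so averaging left its difference as it was, and only the fit around it and the number of tests changed. Of the other junction probe sets, 0 to 1 passed when single arrays were left out, with YBX3 201160_s_at passing without interimplantation site 2 (0.52, adjusted p = 0.0320). With array weights 1 passed (YBX3), and 2 when dim probe sets below the median were left out (YBX3 and CDK4). With the replicate number as a block 1 of these passed (CDK4, adjusted p = 0.0248), 1 member passed, and 252 of all probe sets. No label says whether the numbers pair the arrays. YBX3 213319_s_at, at −0.25, was at 0.083 when the 3 probe sets of YBX3 were averaged. Of all probe sets 235 passed, 119 to 227 when single arrays were left out, with 119 without implantation site 1, 130 without implantation site 3 and 125 without interimplantation site 3. Without the probe sets whose names end in _s_at or _x_at, 57 of 11813 passed, and with gene means 99 of 11963 genes.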
